A study of Mus musculus with 36 samples.

Results

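The genes described here are the collagen chain genes of the mouse brain. They were taken from the deposited gene table by symbol, as Col followed by a chain type number, the letter a and a chain number. Col1a1, Col1a2 and Col3a1 were left out by the same rule, so 41 genes of 44 such symbols, and of 19025 genes in the table, were followed through all 36 libraries. RNA was sequenced from 6 brain regions, labelled HP, PFc, Nac, STR, SN and VTA, of C57 mice aged 6 to 7 weeks. Each region had 3 libraries of the knock-in genotype, labelled KI, and 3 of the wild-type genotype, labelled WT. By the series title the knock-in is a synonymous change in Maoa, which encodes monoamine oxidase A, and lowers its transcription and translation. The labels name no other allele or treatment, spell out none of the region names, and leave unsaid whether each library is a different animal; p-values measure the spread between libraries, which may be technical.

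Collagens are secreted or membrane-bound proteins whose chains wind together into a rope-like helix. Fibril-forming types build the cables of connective tissue, and fibril-associated types sit on their surface. Type IV forms the sheet of the basement membrane under endothelium and around brain capillaries, type VI forms beaded filaments between that sheet and the surrounding matrix, and type VIII forms short networks known from endothelial and corneal matrices. Transmembrane types are anchored in the cell surface and some are made by neurons. Brain tissue holds little fibrous collagen away from the meninges, the vessels and the choroid plexus. The 41 genes were placed in 8 fibril-forming, 6 basement membrane, 6 beaded filament, 1 anchoring fibril, 3 network-forming, 9 fibril-associated, 4 transmembrane, 2 multiplexin and 2 other members.

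The libraries held between 15145631 and 18863503 estimated counts each. Maoa lay between 37.9 and 95.8 CPM (counts scaled to a common library size with TMM factors) in the KI libraries and between 34.1 and 79.6 CPM in the WT libraries, and its mean was lower in KI than in WT only in SN. Its level therefore gives no check of the genotype labels, and KI and WT below mean libraries labelled so. Marker lists for the regions went against the label in 8 libraries: KI HP 2, KI Nac 1, KI Nac 2, KI STR 3, KI SN 1, KI SN 2, WT Nac 2 and WT VTA 3. On the mean log2(CPM + 1) of its own list each scored lower than every other library of its label: 2.82 against 6.10 to 6.67 in HP for hippocampal genes, 3.40 to 4.33 against 8.28 to 8.92 in Nac and 5.24 against 7.07 to 8.85 in STR for striatal genes, and, for dopamine neuron genes, 1.33 to 1.78 against 5.15 to 6.92 in SN and 1.83 against 5.62 to 6.51 in VTA. KI PFc 1 kept its cortical markers but scored 7.20 on the striatal list, against 4.21 to 5.18 in the other PFc libraries. Each is named by its label, and values without them are given beside many of the collagen results.

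Among the 41 genes, the most abundant in WT brain were a transmembrane and a fibril-associated chain. Levels between genes are compared in the authors' deposited TPM (a transcript level that allows for gene length), as the median of the 18 WT libraries with the lowest and highest library. Col25a1, a transmembrane collagen of neurons whose shed part is found in amyloid plaques, had a median of 15.4 TPM and a range of 8.08 to 25.8 TPM. Col9a3, a chain of fibril-associated type IX, followed at 14.4 TPM, with a far wider range of 8.61 to 94.2 TPM. The basement membrane chains Col4a1 and Col4a2 had nearly equal medians of 8.07 and 8.02 TPM. Col11a2, a fibril-forming chain best known from cartilage, had 7.54 TPM, and Col6a1 and Col6a2, chains of the beaded filament, had 7.17 and 4.37 TPM. The ranges of these neighbouring genes overlapped, so their order is not fixed by these libraries.

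Only 20 of the 41 genes had a WT median of at least 1 TPM, 7 had at least 5 TPM and 2 at least 10 TPM. The lowest were Col10a1, the network-forming collagen of growth-plate cartilage, at 0.04 TPM, and Col6a6 at 0.06 TPM; Col10a1 had no count in 9 of the 36 libraries and at most 19. Another 5 members had medians of at most 0.2 TPM, namely Col4a3, Col17a1, Col7a1, Col24a1 and Col4a4. Values of such genes rest on few counts, for instance a median of 9 counts per library for Col4a3 and 7.5 for Col17a1.

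**Figure D1:**
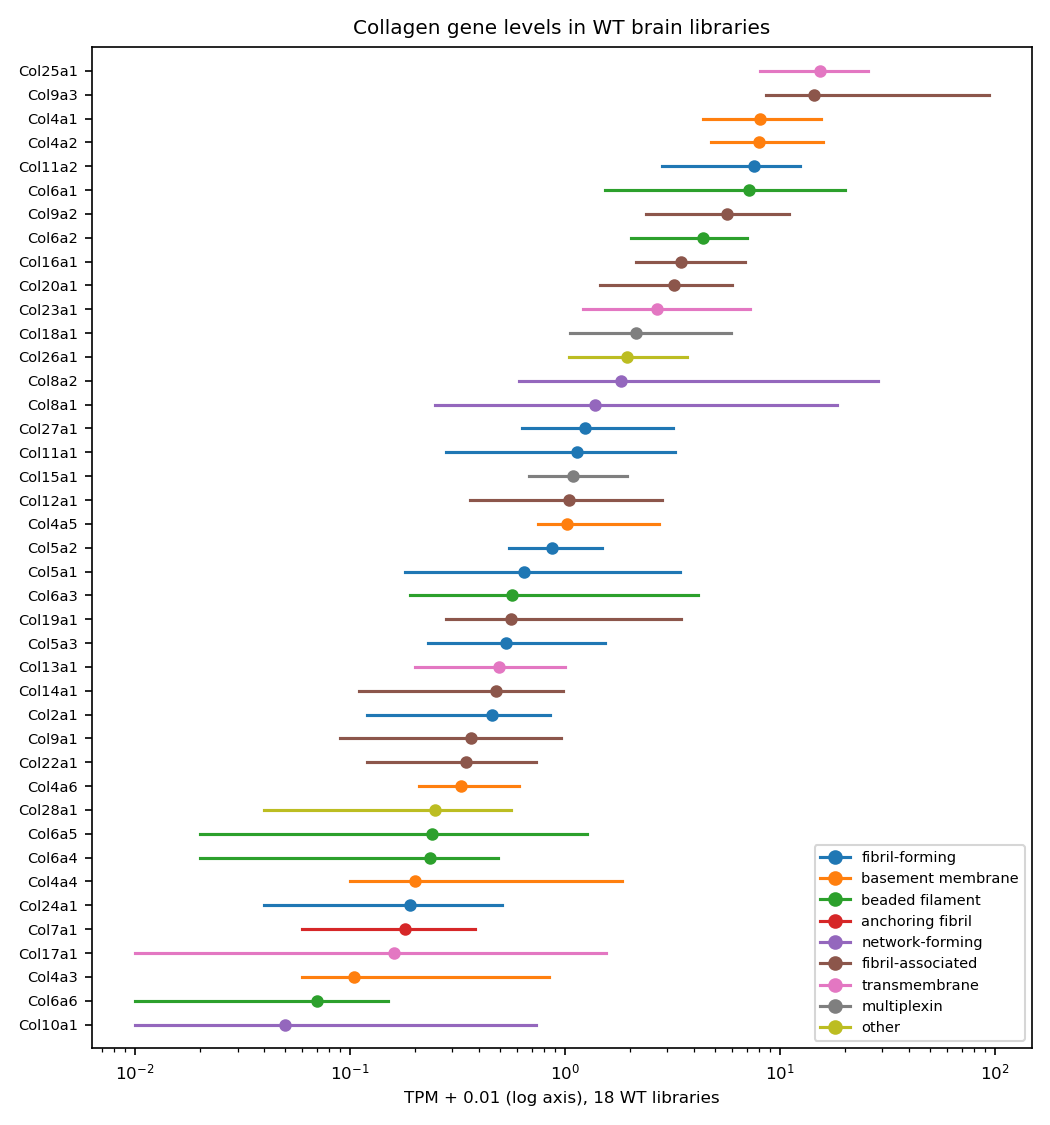
Level of each collagen gene in the 18 WT libraries, in TPM on a log axis with 0.01 added, coloured by family. Points are medians and lines run from the lowest to the highest library; Col25a1 (15.4 TPM) and Col9a3 (14.4 TPM) lead, and Col9a3, Col8a1 and Col8a2 have the longest lines among members above 1 TPM.

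Col4a1 and Col4a2 encode the chains of the common type IV molecule and lie head to head on chromosome 8. In RefSeq's GRCm38.p6 annotation Col4a1 (gene 12826, minus strand) spans 11198423 to 11312889 and Col4a2 (gene 12827, plus strand) spans 11312805 to 11449287, so their 5′ ends overlap by 85 bases. The promoter windows, from 250 bases before to 50 bases after each annotated start, are printed because the levels of both genes are followed below. RefSeq's window table puts the starts at 11312826 for Col4a1, which lies inside the span given above, and at 11312805 for Col4a2. Capitals mark the 78 bases that both windows hold, read on opposite strands.
Col4a1 promoter, chr8:11312777-11313076, minus strand: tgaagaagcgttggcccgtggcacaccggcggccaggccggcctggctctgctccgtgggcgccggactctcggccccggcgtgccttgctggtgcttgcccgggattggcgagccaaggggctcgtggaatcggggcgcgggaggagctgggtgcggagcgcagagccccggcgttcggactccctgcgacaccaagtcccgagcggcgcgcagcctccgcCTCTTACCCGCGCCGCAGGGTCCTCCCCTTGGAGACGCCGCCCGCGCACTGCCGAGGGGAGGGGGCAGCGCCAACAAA
Col4a2 promoter, chr8:11312555-11312854, plus strand: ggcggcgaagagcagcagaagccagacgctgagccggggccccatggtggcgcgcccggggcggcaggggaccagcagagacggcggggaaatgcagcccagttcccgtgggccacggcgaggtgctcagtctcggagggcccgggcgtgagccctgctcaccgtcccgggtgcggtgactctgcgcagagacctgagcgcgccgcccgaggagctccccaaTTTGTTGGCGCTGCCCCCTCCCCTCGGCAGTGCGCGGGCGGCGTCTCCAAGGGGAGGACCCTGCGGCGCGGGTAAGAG
The Col4a1 window holds 1 match to GGGCGG, the core of the GC box, and 1 to CCAAT, on either strand, and the Col4a2 window holds 3 and 1; no GGGCGG match overlapped a CCAAT match in either window, and neither window holds TATAAA. RefSeq windows were found for 33 of the 41 genes. GGGCGG was in 21 of those 33 (63.6%), against 38.2% of 27025 genes with a window, CCAAT in 12 (36.4%, against 41.1%) and TATAAA in 4 (12.1%, against 15.7%). The ratio of Col4a1 to Col4a2 in TPM was between 0.695 and 1.34 in the 18 KI libraries and between 0.81 and 1.35 in the 18 WT libraries. It varied 1.94-fold over all 36, against 6.6-fold for Col6a1 to Col6a2, 17.8-fold for Col9a3 to Col9a2, 24.5-fold for Col4a4 to Col4a3, 49.3-fold for Col8a2 to Col8a1 and 52.9-fold for Col6a1 to Col6a3. The Col4a4 to Col4a3 ratio was highest in KI SN 2, at 0.0619 CPM of Col4a3, and varied 4.92-fold in the WT libraries alone. Col4a3 had a median of 9 counts per library and Col4a1 of 515. The spreads of pairs at such unlike counts therefore cannot be set against each other directly. Whether the counting used strand is not given in the sources used here, so reads over the shared bases of Col4a1 and Col4a2 cannot be assigned with certainty.

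The first comparison asked how collagen transcripts differ between regions of WT brain. STR stood out: type VIII chains Col8a1 and Col8a2, type IX chain Col9a3, the collagen IV chains Col4a3 and Col4a4, and Col17a1 were higher there than in the mean of the other regions. HP and PFc shared higher Col19a1, Col20a1 and Col22a1, all fibril-associated. An F test over the 6 regions in the 18 WT libraries (edgeR's quasi-likelihood test, Benjamini-Hochberg adjustment over all genes, threshold 0.05) called 20 of the 39 collagen genes that passed the filter on low counts, where 48.0% of all genes tested were called, so the members' share was near the background. Without the libraries labelled WT Nac 2 and WT VTA 3 it called 26 of 39, against 70.0% of all genes.

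Col8a2, a type VIII chain of Descemet's membrane in the eye, had 43.0, 61.8 and 54.5 CPM in the WT STR libraries and at most 11.5 CPM in any of the other 15 WT libraries. The STR values did not overlap with those of any other region. Its log2 difference between STR and the mean of the other regions was 3.74 (SE 0.308, edgeR adjusted p = 1.18e-06). Col8a1, its partner chain, had 22.8, 37.9 and 42.5 CPM in STR and at most 8.17 CPM elsewhere in WT (log2 difference 3.45, SE 0.357, edgeR adjusted p = 8.83e-06). Col9a3 had 89.2, 129 and 94.6 CPM in STR, against 10.4 to 22.4 CPM in the other WT libraries (2.75, SE 0.144, edgeR adjusted p = 3.69e-08). The lowest STR library lay far above the highest library elsewhere. Its counts were not whole in 15 of the 36 libraries, as estimated counts of reads shared between genes can be, and its annotated span overlaps Tcfl5 by 237 bases.

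The same held at lower levels for other members. Col4a4, a chain of the glomerular type IV network in the kidney, had 3.77 to 6.98 CPM in WT STR and at most 1.19 CPM elsewhere in WT (2.88, SE 0.223, edgeR adjusted p = 6.35e-07). Col4a3, from the same molecule and the adjacent gene on chromosome 1, had 2.26 to 3.27 CPM in STR and at most 0.719 CPM elsewhere (2.87, SE 0.281, edgeR adjusted p = 5.10e-06). Their annotated spans overlap by 114 bases. Col17a1, the transmembrane collagen of hemidesmosomes, had 2.10 to 4.33 CPM in STR and at most 0.795 CPM elsewhere (3.24, SE 0.332, edgeR adjusted p = 8.15e-06). Col18a1, the multiplexin that yields endostatin, averaged 13.6 ± 1.81 CPM in STR (SD, n = 3), and 3.09 to 8.79 CPM in the other regions' WT means (1.33, SE 0.251, edgeR adjusted p = 0.00164). In all, 11 of 39 members were called higher in STR, where 12.6% of all genes were, and 3 lower, where 8.16% were. The other 4 called higher were Col4a5, Col5a3, Col6a5 and Col26a1, and those called lower were Col12a1, Col19a1 and Col22a1.

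**Figure D2:**
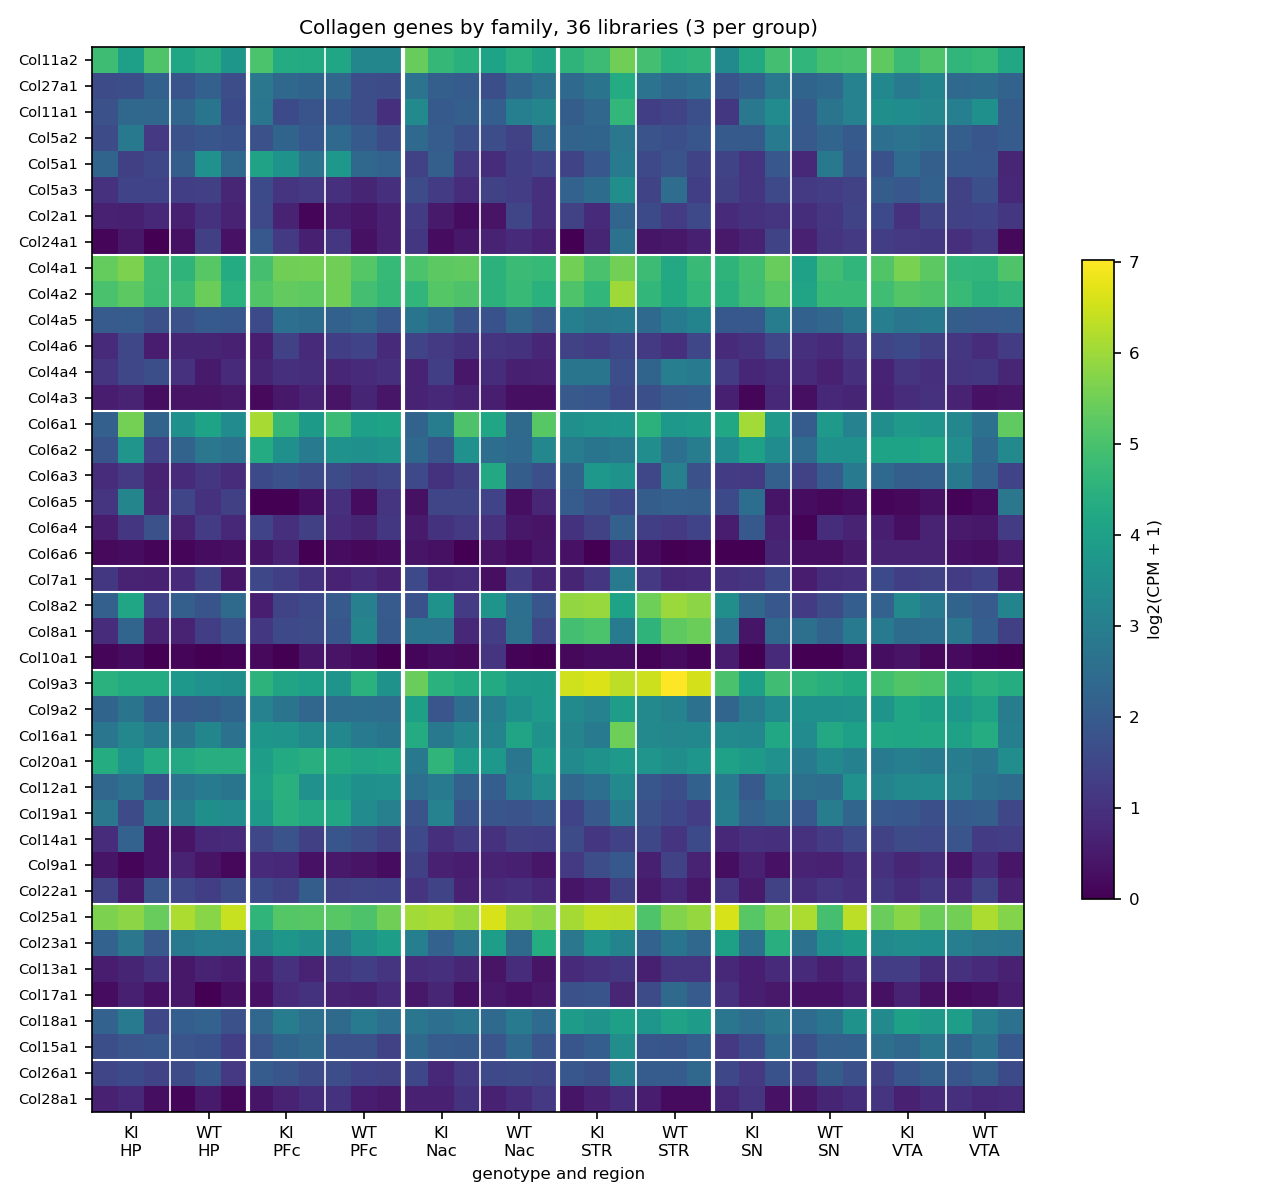
log2(CPM + 1) of the 41 collagen genes, grouped by family with white lines between families, in the 36 libraries; columns are the 6 regions, with the 3 KI libraries left of the 3 WT libraries of each. Bright cells mark Col8a1, Col8a2 and Col9a3 in STR and Col6a1 in a few libraries of several labels, among them KI PFc 1 (67.7 CPM) and KI SN 2 (64.7 CPM).

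Markers of choroid plexus and ependyma, the epithelium and lining of the ventricles, were also highest in STR. The 9 markers, among them Ttr, Kcne2 and Folr1, scored 6.30 to 7.14 in the WT STR libraries and at most 3.80 in the other WT libraries, on mean log2(CPM + 1). KI STR 3, the STR library with the lowest score, 5.14, had 15.8 CPM of Col8a2 and 6.39 CPM of Col8a1, where the other KI STR libraries had 57.5 and 60.0 CPM and 29.5 and 31.4 CPM. Col9a3 in KI STR 3, at 78.1 CPM, was closer to the other KI STR libraries, at 90.7 and 99.0 CPM. Col18a1 was not lower there, at 14.7 CPM, against 13.5 and 11.4 CPM in the other KI STR libraries. Outside STR, the 5 libraries with the highest choroid plexus scores, from 3.65 to 4.81, had 4.37 to 16.8 CPM of Col8a2 with a median of 10.1 CPM, and the other 25 had 0.514 to 11.5 CPM with a median of 3.04 CPM. With the 7 highest, from a score of 2.95, Col8a2 had 3.39 to 16.8 CPM with a median of 10.1 CPM, and the other 23 had 0.514 to 8.87 CPM with a median of 2.97 CPM. For Col9a3 the medians were 21.2 and 18.7 CPM with the 5 highest set apart and 18.9 and 19.1 CPM with the 7, and the ranges overlapped. The ranges of Col8a1, Col4a3, Col4a4 and Col17a1 overlapped in both divisions too. Both divisions were chosen after the values were seen. The part of choroid plexus tissue in the STR values was not tested, and in bulk tissue fewer cells of a type and less RNA per cell cannot be told apart.

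**Figure D3:**
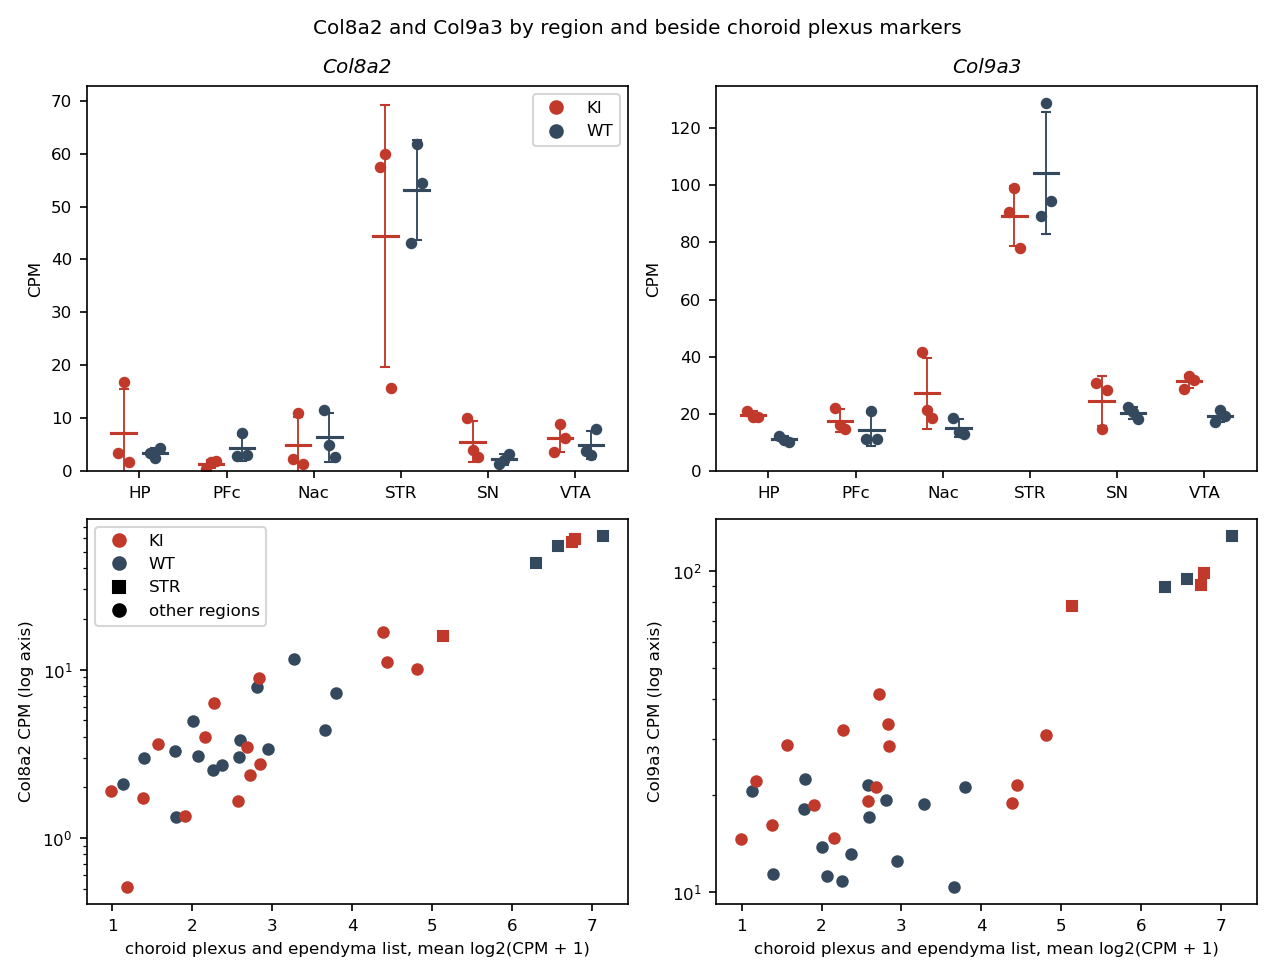
Col8a2 and Col9a3. Upper panels show CPM per library by region, KI left of WT, with mean ± SD (n = 3); lower panels show the same values on a log axis against the mean log2(CPM + 1) of 9 choroid plexus and ependyma markers, with STR libraries as squares. In STR every library but KI STR 3 (15.8 CPM) has at least 43.0 CPM of Col8a2, and all 6 have at least 78.1 CPM of Col9a3.

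HP had lower levels of many members. In WT, 10 of 39 were called lower in HP than in the mean of the other regions, where 16.7% of all genes were, and 3 higher, where 17.6% were. Those higher were Col19a1 (log2 difference 1.23, SE 0.248, edgeR adjusted p = 0.00153), a fibril-associated collagen that interneurons express, Col20a1 (0.89, SE 0.184, edgeR adjusted p = 0.00189) and Col22a1 (0.95, SE 0.245, edgeR adjusted p = 0.0079). Col20a1 had 18 to 19.8 CPM in the WT HP libraries and 5.71 to 18.3 CPM in WT libraries of the other regions. Among those lower in HP were Col9a3, with 10.4 to 12.5 CPM, and Col9a2, another type IX chain, with 3.03 to 3.75 CPM (log2 difference −1.34, SE 0.240, edgeR adjusted p = 0.000651).

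PFc shared the 3 higher genes with HP and added Col5a1, Col12a1 and Col13a1. There 6 members were called higher, where 16.1% of all genes were, and 4 lower, where 12.4% were. Col19a1 had its highest mean in PFc, with 7.33 to 17.2 CPM, overlapping with 6.77 to 10.2 CPM in HP and above 1.43 to 6.74 CPM in the other WT libraries (log2 difference 1.68, SE 0.241, edgeR adjusted p = 2.01e-04). Col12a1, a fibril-associated collagen of dense connective tissue, had 10.4 to 13.3 CPM in WT PFc and 2.24 to 10.6 CPM in the other WT libraries (1.12, SE 0.255, edgeR adjusted p = 0.00501). Col5a1, a fibril-forming chain that limits fibril width, differed among the WT PFc libraries themselves, with 12.5, 4.20 and 3.63 CPM (1.40, SE 0.477, edgeR adjusted p = 0.0389). It overlapped with HP, whose highest WT library had 10.8 CPM.

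With all libraries, fewer members were called in SN, VTA and Nac. In SN, Col11a2 was called higher (log2 difference 0.68, SE 0.187, edgeR adjusted p = 0.0414), with 23.8 to 31.3 CPM in SN and 8.29 to 29.1 CPM in the other WT libraries; this was 1 of 39 members, where 4.70% of all genes were higher. Col8a2 and Col20a1 were called lower in SN, 2 of 39 against 3.21% of all genes. In VTA, Col9a2 was called higher (0.81, SE 0.199, edgeR adjusted p = 0.026), with 12.4, 15.6 and 6.77 CPM, where 4.45% of all genes were, and Col20a1 lower, where 3.16% were. The lowest of the Col9a2 values was that of WT VTA 3. In Nac no member was called higher or lower by edgeR, where 0.914% and 0.285% of all genes were. There 10 of 39 had an unadjusted p under 0.05, against 11.1% of all genes, and no other tool was run on this contrast. These counts depended on WT Nac 2 and WT VTA 3, without which the F test called 70.0% of all genes. Without them edgeR called Col6a3 (1.95), Col6a1 (1.21) and Col23a1 (1.20, edgeR adjusted p = 0.00661) higher in Nac. It called Col8a1 (−1.78) and Col13a1 (−1.49) lower there. In VTA, Col11a1 (1.37) was among those then called higher, and Col6a5 went from 1.20 to −3.05 (edgeR adjusted p = 0.00405).

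The KI libraries give the same measure without sharing a library with the WT fit. There the F test called 14 of 40 members, against 12.6% of all genes, and 26 of 41 without the 6 KI libraries whose markers went against their label, against 50.5% of all genes. Of the 14 members called in KI and the 20 called in WT, 9 were shared, 64.3% of the KI list and 45.0% of the WT list. These were Col4a3, Col4a4, Col5a1, Col8a1, Col8a2, Col9a3, Col12a1, Col18a1 and Col19a1. Without the libraries in question 20 members were shared by lists of 26 and 26, 76.9% of each. The WT fits called 48.0% and 70.0% of all genes, so lists this long share many members without any relation between them. The sharing over all genes is not given here, so these shares are not read as a replication.

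Col6a1 and Col6a2, chains of the beaded filament of type VI, lie on chromosome 10 and are best known from muscle and vessel matrix. Col6a1 varied from 3.42 to 67.7 CPM in the KI libraries and from 3.11 to 38.4 CPM in the WT libraries, and the spread was large within groups. The 7 libraries outside STR that scored highest on striatal neuron markers, from 7.20 to 8.92, had 16.5 to 67.7 CPM of Col6a1 with a median of 38.4 CPM, and the other 23 had 3.11 to 26.4 CPM with a median of 10.5 CPM. The division was chosen after the values were seen, and with the 5 highest, from a score of 8.28, Col6a1 had 16.5 to 64.7 CPM with a median of 35.97 CPM, against 3.11 to 67.7 CPM with a median of 11.6 CPM in the other 25. The 7 were the 3 Nac libraries that carried striatal markers, KI HP 2, KI PFc 1, KI SN 2 and WT VTA 3. The STR libraries, with scores of 7.07 to 8.85 leaving KI STR 3 aside, had 10.6 to 21.8 CPM. Whether the marked tissue accounts for the Col6a1 values was not tested. Col6a3, the third and largest chain, was far less abundant, at 0.56 TPM in the WT median, and highest in WT Nac 1 (17.7 CPM).

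The second comparison asked whether the knock-in differed from wild type. No collagen gene, and no gene at all, passed edgeR's test in any region or with the 6 regions summed per genotype and library number (0% of genes called in each of the 7 comparisons and in the genotype by region test). A fit to all 36 libraries with region as a term did call genes and is given below. The clearest difference was in the basement membrane chain Col4a1, whose mean was higher in KI in all 6 regions. With the 6 regions summed per genotype and library number, 34 of 41 collagen genes had a higher fitted level in KI, with a median log2 fold change of 0.19, against 49.2% of 16171 genes and a median of −0.0038. At an unadjusted p under 0.05 there were 8 of 41 members, against 19.9% of all genes, a share near the background. DESeq2 called 4 of the 39 members to which it gave an adjusted p, against 8.88% of all genes.

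Col4a1 had 39.8, 48.2 and 27.5 CPM in KI HP libraries, against 22.7, 35.5 and 19.1 CPM in WT HP libraries. In PFc it had 29.7, 44.3 and 45.4 CPM in KI, against 44.4, 35.1 and 24.9 CPM in WT. In Nac it had 31.5, 36.9 and 38.6 CPM in KI, against 21.9, 26.8 and 25.1 CPM in WT. All 3 KI libraries lay above all 3 WT libraries in Nac, and the groups overlapped in HP and PFc. In STR it had 44.7, 30.8 and 45.0 CPM in KI, against 27.1, 17.9 and 25.7 CPM in WT, and in VTA 33.5, 47.5 and 37.4 CPM in KI, against 23.9, 23.6 and 32.7 CPM in WT. In SN it had 22.6, 28.8 and 41.2 CPM in KI, against 15.3, 28.4 and 23.6 CPM in WT. The groups were apart in STR and VTA and overlapped in SN.

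Averaged over the 6 regions, Col4a1 had 37.4 ± 3.27 CPM in KI and 26.3 ± 1.40 CPM in WT (SD, n = 3 library numbers each). The fit to the summed counts gave a log2 fold change of 0.51 (SE 0.0792), just short of the threshold in edgeR (edgeR adjusted p = 0.0543) and past it in DESeq2 (DESeq2 adjusted p = 1.16e-05). Col4a2 moved the same way at a smaller size, with 33.1 ± 4.84 CPM in KI and 25.7 ± 2.07 CPM in WT (0.38, SE 0.116, edgeR adjusted p = 0.145, DESeq2 adjusted p = 0.0453). Its KI mean was higher in all 6 regions, and the libraries were apart only in VTA. With all 36 libraries taken as independent and region in the model, edgeR called 4 of 40 members, against 9.47% of all genes: Col4a1, Col4a2, Col5a3 and Col9a3. Without the 8 libraries whose markers went against their label, the fit called 5 of 41, against 16.7% of all genes: Col4a1 (0.56, SE 0.123, edgeR adjusted p = 0.00357), Col4a2, Col9a3, Col11a2 and Col15a1.

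**Figure D4:**
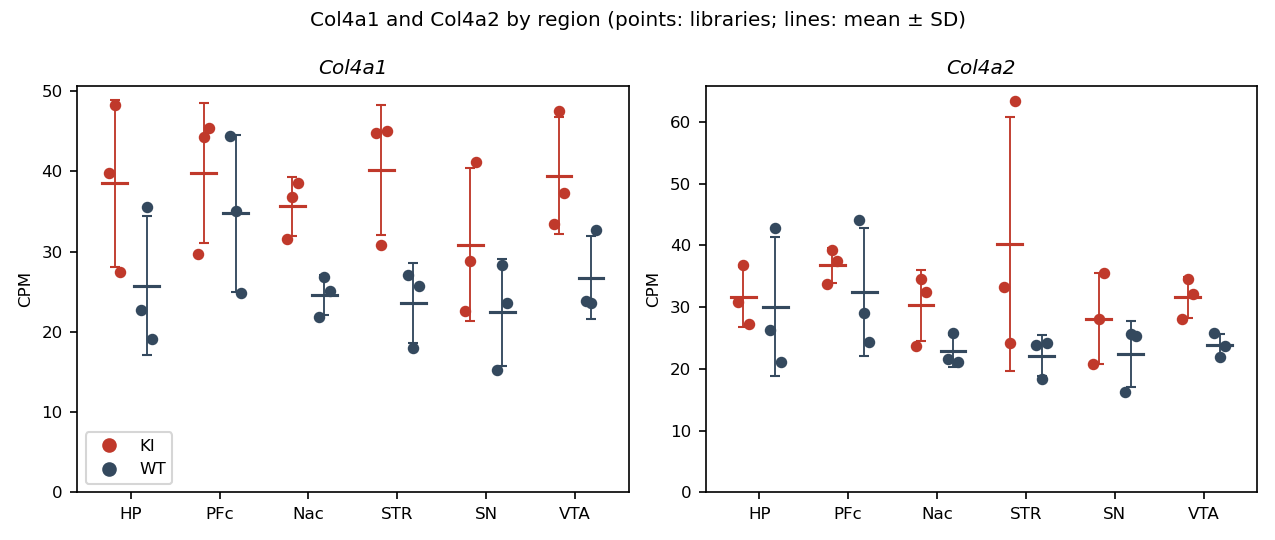
CPM of the basement membrane chains Col4a1 and Col4a2 per library in each region, KI left of WT, with mean ± SD (n = 3). The Col4a1 mean is higher in KI in each region, between 30.9 and 40.2 CPM in KI and between 22.4 and 34.8 CPM in WT; the high Col4a2 point in KI STR is KI STR 3, at 63.5 CPM.

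Markers of vessel cells had higher fitted levels in KI beside Col4a1 and Col4a2, as had those of several other cell types. All 10 endothelial markers, among them Cldn5, Pecam1 and Flt1, had a higher fitted level in KI over the regions (median log2 fold change 0.33), and DESeq2 called 5 of them higher. All 8 pericyte and smooth muscle markers were higher too (0.39), and DESeq2 called 5 of those. edgeR called none of either list, and DESeq2 called 8.88% of all genes. The fitted level was also higher for 7 of 7 microglial markers (0.33, 3 called by DESeq2), 8 of 8 astrocyte markers (0.32, 1 called) and 7 of 8 oligodendrocyte markers (0.31, 2 called). None of these markers was without counts in any library. The summed level of the endothelial list was 202 to 513 CPM in KI libraries and 176 to 378 CPM in WT libraries, and that of the pericyte list 199 to 370 CPM in KI and 145 to 258 CPM in WT. The part of vessel or other cell content in the collagen IV values was not tested.

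Among the other members that DESeq2 called over the regions, Col5a2, a fibril-forming chain of type V, averaged 3.82 ± 0.415 CPM in KI and 2.83 ± 0.126 CPM in WT (0.44, SE 0.122, edgeR adjusted p = 0.115, DESeq2 adjusted p = 0.0288). Col11a2 averaged 26.5 ± 4.35 CPM in KI and 20.0 ± 1.69 CPM in WT (0.40, SE 0.126, edgeR adjusted p = 0.154, DESeq2 adjusted p = 0.048). Neither passed edgeR's test. Col6a2 (0.34, SE 0.116) and Col5a3 (0.75, SE 0.272) came next by p among members averaging 0 or more in log2 CPM, and passed neither tool. Col6a1 had a log2 fold change of 0.40 (SE 0.279) and Col6a3 of −0.14 (SE 0.273); neither passed (edgeR adjusted p = 0.476 and 0.821). By family, the fitted level was higher in KI for 8 of 8 fibril-forming genes (median log2 fold change 0.46), 5 of 6 basement membrane genes (0.30), 5 of 6 beaded filament genes (0.37) and 9 of 9 fibril-associated genes (0.18). It was also higher for the anchoring fibril gene Col7a1 (0.84) and for both multiplexins, for 2 of 4 transmembrane genes, 1 of 3 network-forming genes and 1 of 2 others. These counts belong to the summed fit, which includes KI STR 3, and the share over all genes is given above. With region as a term, Col2a1 was −0.00040 over 36 libraries and −0.085 without those whose markers went against their label. Between the same fits Col14a1 went from 0.10 to −0.10, Col24a1 from 0.42 to 0.12 and Col7a1 from 0.76 to 0.53. Col11a2 went from 0.45 to 0.54.

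VTA showed the largest shift of the 6 regions. There 29 of 37 tested members had a higher fitted level in KI (median log2 fold change 0.58), against 48.9% of 14490 genes (median −0.0086). At an unadjusted p under 0.05 edgeR had 11 of 37 (29.7%), against 13.0% of all genes, and DESeq2 called 3 of 38, against 1.25%. Col4a5, an X-linked chain of the specialised type IV networks, had 7.06, 5.70 and 6.21 CPM in KI VTA, against 3.16, 3.04 and 3.16 CPM in WT VTA. The groups did not overlap, and the log2 fold change was 1.05 (SE 0.178, edgeR adjusted p = 0.355, DESeq2 adjusted p = 0.0109). Col9a3 had 28.7, 33.4 and 32.0 CPM in KI, against 17, 21.6 and 19.3 CPM in WT (0.73, SE 0.133, edgeR adjusted p = 0.355, DESeq2 adjusted p = 0.00893). Col27a1, a fibril-forming chain of cartilage, had 8.68, 6.38 and 8.01 CPM in KI, against 4.29, 4.56 and 3.67 CPM in WT (0.91, SE 0.193, DESeq2 adjusted p = 0.0404).

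Col6a2 was apart in VTA as well, with 15.9, 15.8 and 17 CPM in KI, against 9.91, 4.29 and 8.84 CPM in WT (1.10, SE 0.309, DESeq2 adjusted p = 0.0596). Col5a2 had 4.78 to 5.42 CPM in KI and 2.66 to 3.32 CPM in WT, and Col23a1, a transmembrane collagen, 9.12 to 9.94 CPM in KI and 5.74 to 7.07 CPM in WT. Col6a1, in contrast, had 10.2, 12.5 and 11.6 CPM in KI and 8.52, 5.21 and 38.4 CPM in WT, the last being WT VTA 3. Without WT VTA 3 edgeR called 5 of 37 members, against 5.72% of all genes, and all 5 rose: Col4a1 (0.77, edgeR adjusted p = 0.0344), Col4a5 (1.06, edgeR adjusted p = 0.0299), Col6a2 (1.22, edgeR adjusted p = 0.0486), Col9a3 (0.74, edgeR adjusted p = 0.0264) and Col27a1 (0.83, edgeR adjusted p = 0.0451). In VTA the markers of several cell types also had higher fitted levels in KI. All 13 meningeal fibroblast markers had a higher fitted level (median log2 fold change 0.95, summed level 339 to 380 CPM in KI and 185 to 245 CPM in WT), and so had all 10 endothelial (0.49, 498 to 513 CPM in KI and 308 to 378 CPM in WT) and all 8 pericyte markers (0.76, 356 to 370 CPM in KI and 222 to 232 CPM in WT). Of the oligodendrocyte markers 8 of 8 were higher (0.59, 23470 to 34560 CPM in KI and 12710 to 17430 CPM in WT), with 4 called by DESeq2, and of the astrocyte markers 7 of 8 (0.44, 5166 to 7369 CPM in KI and 4066 to 5857 CPM in WT), with 2 called. DESeq2 also called 4 meningeal fibroblast, 2 endothelial and 2 pericyte markers higher in VTA, where it called 1.25% of all genes. None of these markers was at 0 in a VTA library, and their part in the collagen values was not tested.

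**Figure D5:**
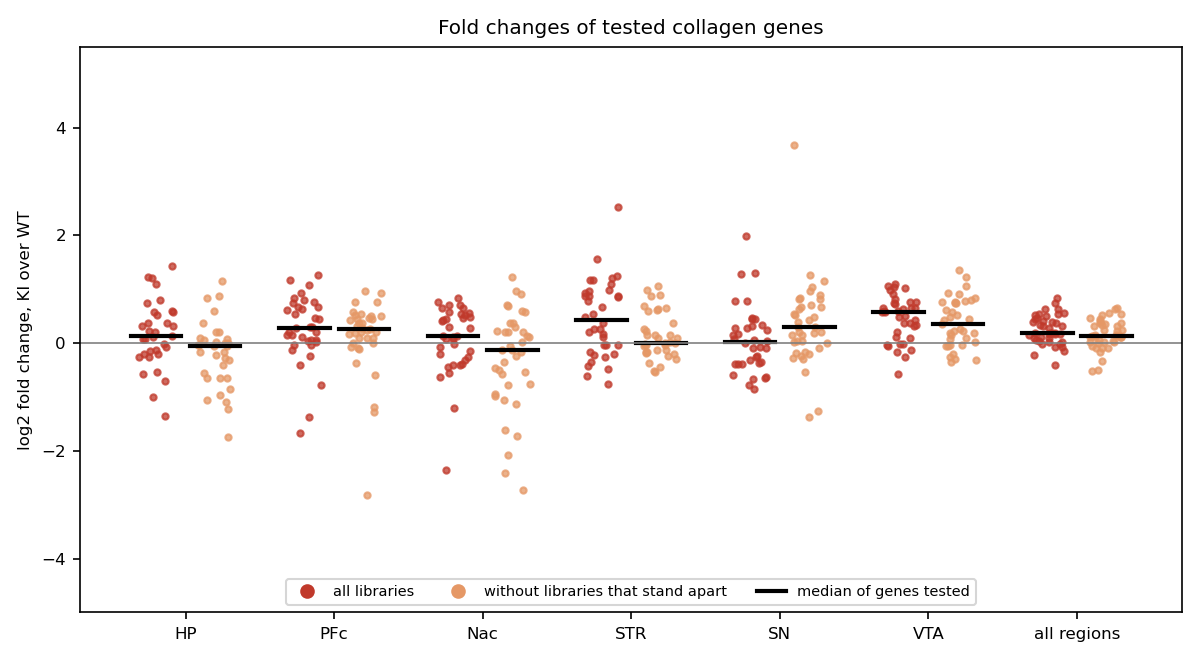
log2 fold change, KI over WT, of each collagen gene tested, per region and over all regions, with all libraries (red) and without the libraries whose markers go against their label (orange; for all regions, a fit with region as a term). Black lines are medians, which are 0.58 in VTA, 0.43 in STR and 0.02 in SN with all libraries and 0.36, 0.01 and 0.31 without those in question.

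In STR the shift came with a single library. With all libraries 24 of 36 tested members were higher in KI (median log2 fold change 0.43, against 51.0% of 14658 genes and a median of 0.0057), and 8 of 36 had an unadjusted p under 0.05 (22.2%, against 10.8% of all genes). DESeq2 called 0 of 39, where 1.38% of all genes were called. Without KI STR 3 the median was 0.01. That library had 23.9 CPM of Col11a1, a fibril-forming chain, where the other KI libraries had 3.20 and 4.03 CPM and the WT libraries 1.45 to 2.27 CPM. It also had 43.4 CPM of Col16a1, a fibril-associated collagen, where the other KI libraries had 8.18 and 6.46 CPM and the WT libraries 8.46 to 8.88 CPM. Its Col27a1, at 19.1 CPM, and Col24a1, at 5.17 CPM, were likewise the highest of the 36 libraries.

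Of the members named by p, 6 were apart between the groups in STR with all KI libraries above WT. Col6a1 and Col6a5 were apart the other way. The share of all genes so apart is not given here, and members of small p are more often apart. The count is therefore not read as a result. The 6 include Col11a1, given above (2.53, SE 0.772, and 0.99, SE 0.286, without KI STR 3), and Col4a1 (log2 fold change 0.78, SE 0.214, edgeR adjusted p = 0.326, DESeq2 adjusted p = 0.0655). Col25a1 had 66.1, 81.1 and 78.8 CPM in KI STR, against 32.7, 50.9 and 59.0 CPM in WT STR (0.68, SE 0.207, edgeR adjusted p = 0.36). Col5a2 had 3.74 to 5.93 CPM in KI STR and 2.29 to 2.69 CPM in WT STR. Col23a1 had 5.90 to 10.7 CPM in KI and 3.61 to 5.65 CPM in WT, and Col12a1 3.95 to 9.12 CPM in KI and 2.24 to 3.54 CPM in WT. None of the 6 passed either tool. Without KI STR 3 the log2 fold changes were 0.68 for Col4a1, 0.63 for Col25a1, 0.59 for Col5a2, 0.88 for Col23a1 and 0.66 for Col12a1. Col4a2 (0.88, SE 0.336, and 0.38 without KI STR 3) had 24.2 to 63.5 CPM in KI and 18.3 to 24.2 CPM in WT, which overlapped. Col6a1 (−0.49, SE 0.229) was lower in every KI STR library, at 10.6 to 11.8 CPM in KI and 12.4 to 21.8 CPM in WT, and did not pass. Col6a2 (−0.20, SE 0.273) and Col6a3 (1.25, SE 0.600) overlapped between the groups.

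In HP, 20 of 33 tested members were higher in KI (median log2 fold change 0.13, against 50.2% of 14144 genes and a median of 0.0016). An unadjusted p under 0.05 was found for 6 of 33 (18.2%), against 14.2% of all genes, and DESeq2 called 1 of the 13 with an adjusted p, against 2.20%. That gene was Col9a3, with 21.2, 18.9 and 19.1 CPM in KI and 12.5, 10.8 and 10.4 CPM in WT, groups that were far apart (0.81, SE 0.131, edgeR adjusted p = 0.304, DESeq2 adjusted p = 0.00274). Col25a1 had 48.8, 55.2 and 40.6 CPM in KI, against 69.7, 53.8 and 84.7 CPM in WT (−0.53, SE 0.204). Col4a4 (1.2, SE 0.432), Col19a1 (−0.99, SE 0.387), Col5a1 (−1.35, SE 0.560) and Col23a1 (−0.71, SE 0.297) followed by p, and none passed a test with all libraries. Without KI HP 2 the Col19a1 value was −0.64 and that of Col4a1 was 0.38, against 0.58 with it. Col6a1 had 3.42, 45.5 and 3.73 CPM in KI and 10.5, 15.8 and 9.36 CPM in WT. The high value belongs to KI HP 2, the library with striatal markers. Without it edgeR called 2 of 33 members, against 0.420% of all genes: Col6a1 fell by 1.74 on the log2 scale (SE 0.255, edgeR adjusted p = 0.0252) and Col9a3 rose (0.84, SE 0.144, edgeR adjusted p = 0.0452).

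In PFc, 27 of 35 tested members were higher in KI (median log2 fold change 0.28, against 53.4% of 14167 genes and a median of 0.029), with 7 of 35 at an unadjusted p under 0.05 (20.0%, against 18.1% of all genes). DESeq2 called 0 of 26, against 2.74% of all genes. Col11a2 had 31.5, 18.8 and 18.4 CPM in KI, against 16.4, 8.40 and 8.29 CPM in WT (1.08, SE 0.337, DESeq2 adjusted p = 0.056). Col16a1 (0.67, SE 0.210), Col15a1, a multiplexin of vessel basement membranes (0.80, SE 0.276), and Col7a1 (1.17, SE 0.346) were higher as well. Both type VIII genes were lower. Col8a2 had 0.514, 1.72 and 1.91 CPM in KI, against 2.97, 7.28 and 3.07 CPM in WT (−1.67, SE 0.531), and Col8a1 1.22, 1.91 and 2.11 CPM in KI, against 2.68, 8.17 and 2.95 CPM in WT (−1.37, SE 0.483). Neither passed edgeR or DESeq2. WT PFc 2, the highest for both, also had the highest choroid plexus score of the PFc libraries, 3.80. That score was 0.987 to 1.38 in KI PFc and 1.40 to 3.80 in WT PFc. Without KI PFc 1 the log2 fold changes were 0.76 for Col11a2, 0.57 for Col16a1, 0.97 for Col15a1 and 0.93 for Col7a1. They were −1.28 for Col8a2 and −1.18 for Col8a1, and 0.01 for Col6a1, against 0.93 with all libraries. There edgeR called 550 of 14299 genes and no member.

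In SN, 19 of 36 tested members were higher in KI (median log2 fold change 0.02, against 51.7% of 14418 genes and a median of 0.015). Only 3 of 36 had an unadjusted p under 0.05 (8.33%, against 17.6% of all genes), and DESeq2 called 2 of 41, against 6.26%. These were Col6a1, with 17, 64.7 and 12.9 CPM in KI and 3.11, 13.0 and 7.67 CPM in WT (1.99, SE 0.716, edgeR adjusted p = 0.218, DESeq2 adjusted p = 0.0323), and Col6a5. Col6a5 had 1.99, 4.77 and 0.321 CPM in KI and 0.167, 0.111 and 0.206 CPM in WT (DESeq2 log2 fold change 3.87, DESeq2 adjusted p = 0.00373); it did not pass edgeR's filter on low counts in SN. The highest value of both genes was in KI SN 2, the library with striatal markers. Without KI SN 1 and KI SN 2 only KI SN 3 is left in KI, and it is assumed to vary like the WT libraries. KI SN 3 itself scored 6.09 on the striatal list, against 4.26 to 4.35 in WT SN. The log2 fold change without KI SN 1 and KI SN 2 was 0.72 (SE 0.654) for Col6a1. Col20a1, with 15.2, 13.2 and 10.8 CPM in KI and 6.28, 9.01 and 7.47 CPM in WT, was apart between the groups (0.78, SE 0.224, DESeq2 adjusted p = 0.0599). Col8a2 (1.31, SE 0.553) was highest in KI SN 1, at 10.1 CPM, the library with the highest choroid plexus score outside STR. Col9a2 (−0.67, SE 0.325), Col7a1 (0.78, SE 0.453) and Col14a1 (−0.65, SE 0.385) passed neither tool. Without KI SN 1 and KI SN 2 the values were 0.51 for Col20a1, 0.31 for Col8a2, −0.16 for Col9a2, 1.27 for Col7a1 and −0.54 for Col14a1, and those of Col4a1 and Col4a2 were 0.89 and 0.67, against 0.46 and 0.33 with them.

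Nac, where 3 of 6 libraries went against their label, showed the fewest differences. There 22 of 36 tested members were higher in KI (median log2 fold change 0.13, against 53.6% of 14333 genes and a median of 0.021). At an unadjusted p under 0.05 there were 2 of 36 (5.56%), against 1.02% of all genes, and DESeq2 called 0 of 41, against 0.0112%. The 2 were Col4a1 (0.54, SE 0.172, edgeR adjusted p = 0.9998) and Col6a3. Col6a3 had 1.95, 1.05 and 1.53 CPM in KI and 17.7, 3.18 and 2.31 CPM in WT (−2.35, SE 0.842). Col9a3, Col11a2, Col4a2 and Col23a1 followed, with log2 fold changes of 0.84, 0.71, 0.40 and −1.21. Without KI Nac 1, KI Nac 2 and WT Nac 2, edgeR called 0 of 38 and had 3 at an unadjusted p under 0.05, against 10.3% of all genes. The values were then 0.71 (SE 0.141) for Col4a1, −2.72 (SE 1.46) for Col6a3, 0.22 for Col9a3, 0.38 for Col11a2, 0.59 for Col4a2 and −1.62 for Col23a1, with 1 KI library left, which is assumed to vary like the WT ones.

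Whether the KI to WT difference itself differed between regions was tested in the fit to all 36 libraries. edgeR called 0 of 40 members. At an unadjusted p under 0.05 it had 4, against 8.73% of all genes, namely Col6a5, Col6a3, Col23a1 and Col12a1. DESeq2 called 1 of 41, Col6a5 (DESeq2 adjusted p = 0.0432), against 0.174% of all genes. Outside STR the highest Col6a5 values were 8.13 CPM in KI HP 2, 5.85 CPM in WT VTA 3 and 4.77 CPM in KI SN 2. The markers of all of these libraries went against their label. The DESeq2 test of Col6a5 without such libraries is not given here, so its call is not read as a difference between regions. Col12a1 and Col23a1 were above WT in all KI libraries of STR and VTA and below WT in all KI libraries of HP, but did not pass the test of that difference by either tool (edgeR adjusted p = 0.563 for both, DESeq2 adjusted p = 0.335 and 0.252). For Col12a1 the HP values were 2.42 to 5.22 CPM in KI and 5.34 to 6.35 CPM in WT. For Col23a1 they were 2.90 to 5.89 CPM in KI and 6.12 to 7.17 CPM in WT.

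Enzymes and partners of collagen were read from a separate list. It holds 64 genes for chain modification, propeptide removal, crosslinking, receptors, degradation and basement membrane partners. With all libraries edgeR called none of those tested in any region or in the fit to the summed regions. Over the regions together, 43 of 62 had a higher fitted level in KI (median log2 fold change 0.12) and 23 had an unadjusted p under 0.05, against 19.9% of all genes. DESeq2 called 9 higher and 2 lower of 61, against 8.88% of all genes. Of the 13 basement membrane partners, 12 were higher and DESeq2 called 6, among them Lamb2, a laminin chain, at 41.6 ± 0.353 CPM in KI and 33.3 ± 0.638 CPM in WT (0.31, SE 0.0533, edgeR adjusted p = 0.0597, DESeq2 adjusted p = 4.59e-05), and Fn1, fibronectin, at 66.3 ± 5.41 CPM in KI and 50.6 ± 3.17 CPM in WT (0.38, SE 0.0862). Mrc2, an endocytic receptor for collagen, had 8.22 ± 0.673 CPM in KI and 5.84 ± 0.417 CPM in WT (0.49, SE 0.104, DESeq2 adjusted p = 0.00254). Adamts2, the protease that removes amino-terminal propeptides of fibrillar procollagens, was lower, at 4.21 ± 0.447 CPM in KI and 7.88 ± 1.22 CPM in WT (−0.91, SE 0.144, edgeR adjusted p = 0.0543, DESeq2 adjusted p = 4.47e-06).

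By region, DESeq2 called 1 gene of the list higher and 1 lower of 45 in HP, against 2.20% of all genes, 1 lower of 53 in PFc, against 2.74%, and 3 higher of 59 in VTA, against 1.25%. In SN it called 2 higher and 3 lower of 62, near the 6.26% of all genes. It called none of 63 in Nac or of 60 in STR, against 0.0112% and 1.38% of all genes, and there 1 of 57 and 8 of 59 had an unadjusted p under 0.05 in edgeR, against 1.02% and 10.8% of all genes. In HP these were P3h4, which acts in lysine modification of procollagen, at 18.4 ± 0.521 CPM in KI and 12.2 ± 0.386 CPM in WT (0.59, DESeq2 adjusted p = 0.0243), and P4ha2, a prolyl hydroxylase subunit, at 7.10 ± 0.859 CPM in KI and 12.4 ± 1.02 CPM in WT (−0.82, DESeq2 adjusted p = 0.0156). In PFc the gene was Adamts2, at 3.31 ± 0.890 CPM in KI and 10.2 ± 2.26 CPM in WT (−1.59, DESeq2 adjusted p = 1.96e-04). In VTA they were Nid1, the linker of laminin and collagen IV, at 24.6 ± 1.40 CPM in KI and 13.0 ± 3.10 CPM in WT (0.95, DESeq2 adjusted p = 0.00919), the collagen receptor Ddr2 (1.16, DESeq2 adjusted p = 0.0189) and Mrc2 (1.08, DESeq2 adjusted p = 0.0466). In SN, Pcolce2 (−1.86), Lamb1 (1.90), Adamts2 (−1.65) and Plod1 (−0.98), a lysyl hydroxylase, had the smallest p. Lamb1 had 30.8 ± 15.0 CPM in KI SN and 8.25 ± 0.413 CPM in WT SN. The KI SN values include KI SN 1 and KI SN 2. All fits to this list, by region and over the regions, include the libraries whose markers went against their label. Values of the list without them are not given here.

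In the authors' deposited table of comparisons, 1 collagen gene had a q-value under 0.05 in HP (Col9a3, log2 fold change 0.81, q-value 0.00403), 2 in SN (Col6a1 and Col6a5), 3 in VTA (Col4a5, Col9a3 and Col27a1) and none in PFc, Nac or STR. Over all genes 185 had such a q-value in HP, 934 in SN, 154 in VTA, 280 in PFc, 2 in Nac and 200 in STR. The headers of these values name DESeq2, and they rest on the same libraries, so they are not a second, independent test. Col4a1 lay, in the authors' deposited table, at log2 fold changes between 0.21 (PFc) and 0.77 (STR), and its smallest q-value was 0.077, in STR.

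The deposited transcript counts show which members are measured as a single product. The 41 genes have 190 listed transcripts, and 33 have more than 1. The leading transcript held 97.9% of the estimated counts of Col4a1, 95.2% of Col9a3, 98.5% of Col20a1, 99.8% of Col23a1 and 99.9% of Col8a2 over the 36 libraries, and its share for Col4a1 stayed between 96.15% and 98.89% in all 12 groups. Col25a1 has 33 listed transcripts, of which the leading one held 17.7%, and Col11a2 has 20, with 53.7%. For Col11a2 the leading share ran from 20.5% to 64.2% between groups. Such splits are estimates from short reads, and no test was made of them.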

How the data were processed

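RNA was sequenced from 36 libraries in 12 groups of 3, with a SMARTER mRNA-seq kit per the labels' protocols. The authors deposited estimated counts and TPM per gene and per transcript, per the file headers, on GRCm38.p6 per the submitters' processing notes; which aligner and counter made them, and with what strand setting, is not given in the sources used here. They also deposited a table of log2 fold changes with p-values and q-values per region. Of the deposited gene values 9.88% were not whole, so the estimated counts were rounded before testing. A further 180 per-sample columns were not used.

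Differences were tested over all genes with edgeR 4.0.16 (limma 3.58.1, R 4.3.3): TMM scaling, filterByExpr, the quasi-likelihood test and Benjamini-Hochberg adjustment, threshold 0.05. The overall comparison of genotypes summed the 6 regions per genotype and library number, which does not assume that these came from the same animal. It does take the sums of a genotype as independent. That would not hold if an animal gave libraries of different numbers, which the labels leave unsaid. DESeq2 1.42.0 was the other tool. The procedure was checked on simulated data. Where libraries that stand apart are left out, these are the 8 named ones and, within PFc, KI PFc 1. In each comparison of genotypes the members named are those called by either tool, then those of smallest edgeR p until 6 are named, all averaging 0 or more in log2 CPM; Col4a1, Col4a2, Col6a1, Col6a2 and Col6a3 are always named, and up to 4 genes of the pathway list. Other members were named after their values were seen. The members, lists and libraries that stand apart were chosen with earlier results of these data known. All 41 gene IDs matched RefSeq. Figures were drawn with Python 3.11.15 and matplotlib 3.10.9.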

Additional observations from a re-analysis of the deposited data

How the results depend on the processing

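Collagen genes past an adjusted p of 0.05 numbered 0 by edgeR with all libraries in each region and in the fit to the summed regions. This count depended on the tool, the model and the libraries, and the cause was not tested. In HP it was 1 with DESeq2, 2 without libraries that stand apart, 6 with DESeq2 without them (chosen after seeing the data) and 0 to 2 leaving out a library in turn (2 without KI HP 2). Over all genes 260 were called with DESeq2, 60 without those libraries and 866 with DESeq2 without them. In SN the count of members was 2 with DESeq2 (6.26% of all genes) and 0 to 1 leaving out a library (1 without KI SN 3). In VTA it was 3 with DESeq2 (1.25%), 5 without WT VTA 3 (5.72%), 7 with DESeq2 without it and 0 to 5 leaving out a library. Over all regions it was 4 with DESeq2 (8.88%), 4 with region as a term over 36 libraries (9.47%) and 5 with that term over the 28 others (16.7%). The genotype by region test gave 1 with DESeq2 (0.174%). Over regions it was 14 in KI (12.6%), with 6, 4 and 0 leaving out library number 1, 2 and 3, and 26 without libraries that stand apart (50.5%). In WT it was 20 (48.0%), with 10, 11 and 13 leaving out number 1, 2 and 3. With a replicate block the counts were 0 in each comparison of genotypes, 20 in WT regions and 10 in KI regions. Shares over all genes of the remaining fits are not given here. As calls over all genes also moved, these counts are not read as results about collagens. Same-numbered KI and WT libraries deviated with correlations of −0.49 to 0.50, so the numbers were not taken to pair libraries. For 67 named values 803 alternatives were computed, of which 729 kept direction and call, 36 passed the threshold and 38 changed sign. None of the last was called with all libraries, but some passed the threshold with the opposite sign without the libraries that stand apart. These include Col6a1 in HP (edgeR adjusted p = 0.0252), Col6a2 in HP (DESeq2 adjusted p = 0.0247) and Col6a1 in VTA (DESeq2 adjusted p = 0.0255). In HP, the Col4a2 log2 fold change was −0.056 by edgeR and −0.062 by DESeq2 without libraries that stand apart and −0.13 to 0.41 leaving out a library. Col6a1 in HP was −0.45 with a replicate block, −1.74 without libraries that stand apart by both tools and −1.74 to 1.07 leaving one out. Col6a2 in HP was −0.34 with a replicate block, −1.22 and −1.23 without those libraries by edgeR and DESeq2, and −1.22 to 0.55 leaving one out. Col6a2 in PFc was −0.37 and −0.38 without KI PFc 1, and −0.37 to 0.46 leaving one out. In Nac, Col6a1 was 0.30 by both tools without libraries that stand apart and −1.84 to 0.45 leaving one out. Col6a2 in Nac was 0.0036 with RLE size factors, 0.0058 with DESeq2, 0.70 without those libraries by both tools and −0.81 to 0.36 leaving one out. Col6a2 in STR was −0.41 to 0.11 leaving one out. In VTA, Col6a1 was 0.77 and 0.78 without WT VTA 3 and −1.02 to 0.77 leaving one out, and Col6a3 was 0.15 with a replicate block and −0.36 to 0.53 leaving one out. Col6a3 over all regions was −0.33 to 0.14 leaving one out. Depth limits the least abundant members most, such as Col10a1, Col4a3 and Col17a1.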

Other observations

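Genes that process or bind collagen also differed between WT regions. edgeR's F test called 41 of the 60 tested genes of the pathway list, where 48.0% of all genes were called. Pcolce, an enhancer of procollagen C-proteinase, averaged 42.2 ± 13.2 CPM in STR, against WT means of 3.45 to 7.86 CPM in the other regions (SD, n = 3; F test by edgeR, adjusted p = 2.84e-06). Nid2, a basement membrane linker, averaged 11.2 ± 1.73 CPM in STR, against 2.34 to 3.39 CPM in the other regions (edgeR adjusted p = 2.96e-05). For both, every WT STR library lay above every other WT library. P3h4 averaged 30.9 ± 2.78 CPM in VTA and 12.2 ± 0.386 CPM in HP (edgeR adjusted p = 4.94e-05). Sparc, a collagen-binding glycoprotein, averaged 1732 ± 558 CPM in SN and 230.2 ± 18.9 CPM in PFc (edgeR adjusted p = 8.23e-05).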
